A study of Mus musculus with 15 samples.

Results

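The 46 genes described here are Myc and 45 genes of ribosome biogenesis. They were taken by name from a list of the pathway, which was proposed with earlier results of these data known, and all 46 had a row among the 56748 genes of the deposited tables. All 46 were also among the 15619 genes with enough counts to be tested. By role, 7 genes serve transcription by RNA polymerase I, 8 encode proteins of small nucleolar ribonucleoproteins (snoRNPs) or their chaperone, 14 act in processing of the small subunit, 12 act in processing of the large subunit, and 4 are nucleolar proteins with several roles.

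Sequencing covered 15 RNA libraries from mouse T helper 2 (Th2) cultures derived from naive CD4+ spleen cells of female mice, in a study of how loss of ASB2, a subunit of an E3 ubiquitin ligase, alters their RNA. Control cells were Asb2fl/fl, and conditional knockout (cKO) cells were VEC-Cre;Asb2fl/fl, in which the VE-cadherin promoter drives Cre, so that both genotypes carried the floxed alleles and only the cKO carried Cre. Besides endothelium, this promoter works in early precursors of the blood, so the deletion is not limited to T cells. All cells were primed for 3 days on anti-CD3ε (5 µg/ml) with IL-2 (10 ng/ml), IL-4 (40 ng/ml), anti-CD28 (1 µg/ml) and anti-IFNγ (10 µg/ml), then held for 3 days in IL-2 and IL-4 at 20 ng/ml each without antibodies. Stimulated cells received coated anti-CD3ε (3 µg/ml) and soluble anti-CD28 (2 µg/ml) from day 5 for 24 h. Control cells gave 3 non-stimulated and 5 stimulated libraries, and cKO cells gave 3 and 4. The labels do not state the animals' age, or whether the libraries of 1 group are from different mice. The p-values rest on the spread among libraries, which may be technical.

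Ribosomes are assembled in the nucleolus. RNA polymerase I makes a long precursor RNA, snoRNPs guide its modification and cleavage, and large sets of processing factors turn the parts into the small and the large subunit. Myc is a transcription factor that pairs with Max, binds the E-box CACGTG, and is known to raise the expression of many genes of this pathway. In T cells, signals through the antigen receptor and CD28 are known to induce Myc as cells grow and prepare to divide.

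The promoters are shown for the genes that carry this E-box, because it is the sequence through which Myc is known to act. RefSeq promoter sequences (GRCm38.p6, 250 bases before to 50 after a start listed for each gene) were matched by symbol for 39 of the 46 genes, and Myc, Tcof1, Fbl, Rrp12, Bop1, Rrs1 and Npm1 had no entry. The motif CACGTG, which reads the same on both strands, was present in 10 of the 39 promoters, or 25.6%. It was present in 8.09% of the 27025 genes of the promoter table and in 11.7% of the 10238 tested genes with an entry. Split by the stimulation call in control cells, it was in 12.6% of tested genes called higher, 11.3% of those called lower and 11.3% of those not called. Rrn3, which encodes the factor that brings RNA polymerase I to its promoter, had 2 copies, at 215 and 48 bases before its start. Its 250 upstream bases, on the plus strand at chr16:13780449-13780698, are given with the E-boxes in capitals.
Rrn3: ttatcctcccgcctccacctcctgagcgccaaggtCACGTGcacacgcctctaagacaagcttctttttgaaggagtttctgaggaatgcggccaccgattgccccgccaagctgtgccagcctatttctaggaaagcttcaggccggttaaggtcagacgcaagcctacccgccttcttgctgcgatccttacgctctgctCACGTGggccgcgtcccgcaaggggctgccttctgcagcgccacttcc

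The other 9 promoters held 1 copy each, shown as 30 bases 5′ to 3′ on the strand of the gene, with the E-box in capitals. Nop2 (60 bases) and Utp18 (20 bases) had it before the start, and the others had it after the start.
Nop2, chr6:125131811-125131840, plus strand: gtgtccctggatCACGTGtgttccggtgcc
Utp18, chr11:93885769-93885798, minus strand: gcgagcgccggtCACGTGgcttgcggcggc
Pes1, chr11:3963965-3963994, plus strand: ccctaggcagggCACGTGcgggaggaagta
Utp4, chr8:106893643-106893672, plus strand: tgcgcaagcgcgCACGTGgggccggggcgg
Wdr43, chr17:71616220-71616249, plus strand: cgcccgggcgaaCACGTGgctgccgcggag
Ltv1, chr10:13193092-13193121, minus strand: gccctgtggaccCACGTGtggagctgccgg
Grwd1, chr7:45830740-45830769, minus strand: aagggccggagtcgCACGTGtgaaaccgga
Utp20, chr10:88826765-88826794, minus strand: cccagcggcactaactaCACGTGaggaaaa
Mybbp1a, chr11:72441347-72441376, plus strand: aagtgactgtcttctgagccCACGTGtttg

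Of the 11 copies, 7 lay within the 50 bases after the start, or 63.6%, against 13.9% of the copies in the whole promoter table. This share was not computed for tested genes alone. Distances are from the start of the promoter entry, which was the outermost start of the gene for 8 of these 10 genes (not for Grwd1 and Wdr43), and for 72.5% of the table by the first entry of each gene. With only 100 bases before the start searched, the same share of member promoters (25.6%) held the motif. In this window it was in 5% of the table and 7.48% of tested genes. By role, the motif was in 5 of 13 promoters of small subunit genes, 3 of 10 of large subunit genes, 1 of 3 of the nucleolar genes, 1 of 6 of the polymerase I genes and 0 of 7 of the snoRNP genes. The related motif CACGCG, searched on both strands, was in 41% of member promoters, 10.5% of the table and 19.9% of tested genes. CACATG, searched the same way, was in 20.5%, 15.9% and 10.5%. A match describes the letters in the window, and no binding was measured here.

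Asb2 itself was used to check the genotype labels. Its level, in CPM (reads scaled to a fixed library total, here on scaled library sizes), was 25.6 to 49.7 in non-stimulated control, 31.2 to 38.0 in stimulated control, 12.7 to 22.7 in non-stimulated cKO and 9.36 to 9.59 in stimulated cKO libraries, so every cKO library was below every control library of its condition. With stimulation its log2 difference, cKO against control, was -1.82 and was called. Without stimulation it was -0.94 and was not called, in the main fit or in any other setting tried. Mean Asb2 without stimulation was 36.7 CPM in control and 19.2 CPM in cKO libraries. The check of the labels is therefore weaker for non-stimulated cells. The labels do not name the deleted exons. Estimated counts per library totalled between 17.1 and 24.2 M. Stimulated cKO replicate 3 stood apart by its mitochondrial share, 9.43% against 4.36 to 6.24% in the others, and by its scaling factor of 0.890. Summed markers of T cells (7 genes) ran from 1097 to 1806 TPM (transcript counts corrected for gene length and scaled to a fixed total) over the 15 libraries, and those of Th2 cells (6 genes) from 331 to 463 without and 2623 to 3896 with stimulation. Among markers of other cells, 5 B cell genes summed to 4.26 TPM or less and the 4 globin genes were at 0, whereas 4 endothelial genes summed to up to 66.4 TPM and 5 genes of CD8 and NK cells to up to 30.6 TPM.

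On the TPM scale, which corrects for gene length, the levels of the 46 genes spanned a wide range in non-stimulated control cells. Npm1, a nucleolar chaperone, was highest at 704 ± 125 TPM (SD, n = 3), followed by Ncl (196 ± 22.3 TPM), which encodes the nucleolar protein nucleolin. Next came the snoRNP genes Nop58 (152 ± 34.9 TPM) and Gar1 (129 ± 21.1 TPM), whose ranges overlapped. Myc ranked 11 of 46, at 47.4 ± 11.9 TPM. The lowest were Utp20 (5.34 ± 1.08 TPM), Grwd1 (5.30 ± 1.13 TPM) and Rrp12 (5.14 ± 1.25 TPM), which did not differ beyond their spread. The median tested gene was at 6.93 TPM, and 39 of the 46 genes were above it.

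Summed over the 46 genes, the level was 2088, 2169 and 2606 TPM in the non-stimulated control libraries and 3926 to 4725 TPM in the 5 stimulated ones. In cKO cells it was 2340 to 2557 TPM without and 3331 to 4678 TPM with stimulation. The stimulated libraries were above all non-stimulated ones in both genotypes. All values are shares of a library, so a change in total RNA per cell was not measured, and in bulk RNA fewer cells of a type and less RNA per cell cannot be told apart.

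Stimulation raised most of the pathway in both genotypes. In control cells, 41 of the 46 genes rose at an adjusted p under 0.05, none fell, and 5 were not called. Over all tested genes, 25.4% rose and 25.2% fell (50.6% in either direction). The median log2 fold change of the 46 genes was 0.88, against 0.00 over all tested genes. In cKO cells, 40 rose and none fell, with a median of 0.94 against -0.01, where 26.7% of tested genes rose and 27.1% fell (53.8% in either direction). At an unadjusted p under 0.05, 42 of the 46 differed in each genotype, against 55.9% of tested genes in control and 59% in cKO cells.

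A rise of at least 2-fold was called for 15 members in control cells (7.82% of tested genes) and for 19 in cKO cells (8.49%). They shared 13 genes, which are 86.7% of the control set and 68.4% of the cKO set. These were Myc, Polr1b, Dkc1, Utp20, Heatr1, Rrp9, Rrp12, Dimt1, Nop16, Ppan, Gnl3, Grwd1 and Mybbp1a. Called higher in both genotypes were 40 members, against 21.9% of tested genes. In control cells, every stimulated library was above every non-stimulated one for 39 members, against 23.8% of tested genes. In cKO cells this held for 41 members, against 26.8%.

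**Figure D1:**
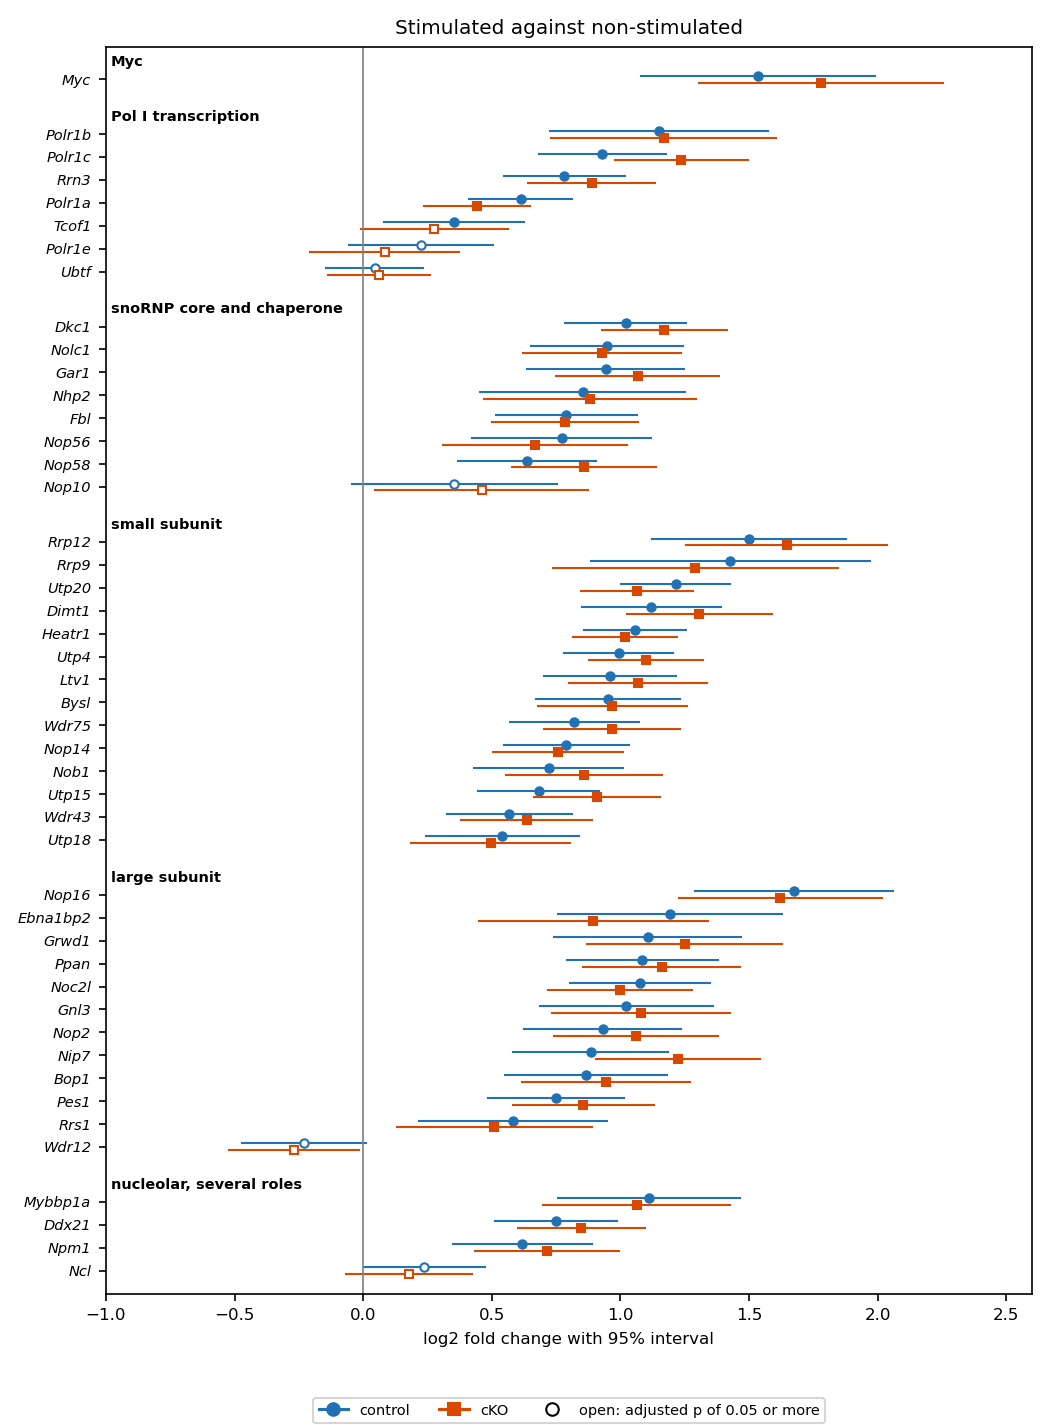
Log2 fold change of each of the 46 genes in stimulated against non-stimulated cells (x axis), with 95% intervals, for control (circles) and cKO (squares), sorted by role and by the control value. Filled symbols passed an adjusted p of 0.05. Nop16 has the largest control value (1.67), and Wdr12 is the only gene left of 0 in both genotypes.

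Myc was 124, 73.6 and 118 CPM in the non-stimulated control libraries and 407, 284, 337, 229 and 268 CPM in the stimulated ones. In cKO cells it was 98.7, 96.7 and 65.9 CPM before and 321, 267, 264 and 343 CPM after stimulation. In both genotypes all stimulated libraries were above all non-stimulated ones. The rise was 2.90-fold in control cells (log2 1.54 ± 0.21 SE, adjusted p = 2.8e-05) and log2 1.78 ± 0.22 in cKO cells (adjusted p = 9.8e-06).

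Among the 7 genes of RNA polymerase I transcription, 5 rose in control and 4 in cKO cells, with medians of 0.61 and 0.44. Polr1b, the second-largest subunit of the enzyme, was 23.1, 14.5 and 22.9 CPM in non-stimulated control and 53.2, 43.7, 48.4, 43.4 and 35.2 CPM in stimulated control libraries. Its log2 rise was 1.15 ± 0.20 (adjusted p = 1.6e-04) in control and 1.17 ± 0.21 (adjusted p = 1.9e-04) in cKO cells, and the groups did not overlap. Rrn3 was 59.5, 52.3 and 79.3 CPM without and 122, 114, 103, 106 and 103 CPM with stimulation in control cells. Its rise was log2 0.78 ± 0.11 (adjusted p = 1.6e-05), and in cKO cells 0.89 ± 0.12 (adjusted p = 6.0e-06). Polr1c, a subunit shared with RNA polymerase III, rose by log2 0.93 ± 0.12 and 1.24 ± 0.12 in control and cKO cells. Polr1a, which encodes the largest subunit, rose by 0.61 ± 0.09 and 0.44 ± 0.10.

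Other genes of the same machinery did not pass. Ubtf, which encodes a factor that binds ribosomal DNA, was 174, 156 and 160 CPM without and 192, 159, 182, 151 and 157 CPM with stimulation in control cells. Its groups overlapped, and the 95% interval of its log2 change ran from -0.14 to 0.23. In cKO cells the interval was -0.14 to 0.26. Polr1e, another subunit of the polymerase, had log2 values of 0.22 ± 0.13 (adjusted p = 0.17) and 0.08 ± 0.14 (adjusted p = 0.63). In control cells it passed without non-stimulated control replicate 1 (0.38, adjusted p = 0.040). Tcof1, which encodes the nucleolar protein treacle, rose in control cells (0.35 ± 0.13, adjusted p = 0.031) but was not called in cKO cells (0.28 ± 0.14, adjusted p = 0.092). The difference between these responses was -0.08 ± 0.19 (adjusted p = 1.00), so it was not shown to differ. The Tcof1 call was lost without non-stimulated control replicate 2 (adjusted p = 0.058) or 3 (0.14), or stimulated control replicate 1 (0.071) or 3 (0.053), and on the TPM scale (0.052 and 0.054). In cKO cells Tcof1 passed under 5 alternatives, with adjusted p from 0.018 to 0.048, among them leaving out stimulated cKO replicate 3 (0.38, adjusted p = 0.022) or stimulated control replicate 1 (0.29, adjusted p = 0.048).

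Of the 8 snoRNP genes, 7 rose in both genotypes, with medians of 0.82 and 0.87. The box C/D particle, which guides RNA methylation, was represented by the methyltransferase gene Fbl (0.79 ± 0.13 and 0.79 ± 0.13) and its partners Nop56 (0.77 ± 0.16 and 0.67 ± 0.17) and Nop58 (0.64 ± 0.13 and 0.86 ± 0.13), values in control and cKO cells. For the box H/ACA particle, which guides pseudouridine formation, Dkc1 encodes the enzyme. Dkc1 was 78.7, 60.3 and 67.1 CPM without and 165, 140, 147, 128 and 117 CPM with stimulation in control cells. It rose by 1.02 ± 0.11 (adjusted p = 7.4e-07) and, in cKO cells, by 1.17 ± 0.12 (adjusted p = 2.5e-07). Its partners Gar1 (0.94 ± 0.14 and 1.07 ± 0.15) and Nhp2 (0.85 ± 0.19 and 0.88 ± 0.19) rose as well.

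The fourth H/ACA protein gene, Nop10, was at 8.78, 9.10 and 10.8 CPM without and 17.1, 10.8, 13.5, 11.3 and 8.44 CPM with stimulation in control cells. These groups overlapped, and the log2 values were 0.35 ± 0.19 (adjusted p = 0.13) in control and 0.46 ± 0.20 (adjusted p = 0.057) in cKO cells. It lies at the low end of the counts (mean 9.55 CPM without stimulation), as do Nop16 (8.83 CPM) and Rrp9 (9.39 CPM), which were called. Nop10 passed in control cells without stimulated control replicate 5 (0.46, adjusted p = 0.039) and with the replicate number as a block (0.48, adjusted p = 0.017). In cKO cells it passed under 7 alternatives (adjusted p from 0.012 to 0.047), so its call depended on the setting. These were no filter on counts, only the groups compared, the block, and leaving out stimulated control replicate 1 or 5, non-stimulated cKO replicate 1 or stimulated cKO replicate 2. Nolc1, a chaperone of snoRNPs, rose by 0.95 ± 0.14 and 0.93 ± 0.15.

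All 14 genes of small subunit processing rose in both genotypes, with medians of 0.96 and 0.99. Rrp12, needed for export and maturation of pre-ribosomal particles, was 25.3, 16.7 and 29.9 CPM without and 80.5, 69.3, 76.9, 60.2 and 52.4 CPM with stimulation in control cells. The cKO libraries had 19.8, 23.5 and 19.3 CPM before and 69.8, 67.4, 52.6 and 71.0 CPM after. Its rise, 2.83-fold in control (log2 interval 1.12 to 1.88, adjusted p = 2.9e-06) and log2 1.65 ± 0.19 in cKO cells (adjusted p = 1.6e-06), separated the groups fully. Rrp9, a protein of the U3 snoRNP, rose by 1.43 ± 0.25 and 1.29 ± 0.26.

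Utp20, a component of the small subunit processome, was 38.9, 46.4 and 48.8 CPM without and 114, 99.5, 98.2, 104 and 104 CPM with stimulation in control cells. Its rise of 1.22 ± 0.10 had the smallest adjusted p of the 46 genes in control cells (2.7e-08). In cKO cells it rose by 1.06 ± 0.10. Heatr1, Utp4, Utp15, Wdr43 and Wdr75 encode proteins of the subcomplex that joins the precursor first. Their log2 rises in control cells were 1.06, 0.99, 0.68, 0.57 and 0.82, and in cKO cells those of Heatr1, Utp15, Wdr43 and Wdr75 were 1.02, 0.91, 0.64 and 0.97, while Utp4 rose 2.14-fold.

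Utp18, of another processome subcomplex, had the smallest rise of this role in both genotypes (0.54 ± 0.14 and 0.50 ± 0.15). Nop14, a further processome protein, rose by 0.79 ± 0.12 and 0.76 ± 0.12. Dimt1, which encodes a dimethylase of the small subunit RNA, rose by 1.12 ± 0.13 and 1.31 ± 0.13. Late maturation factors rose too, with Bysl at 0.95 and 0.97 and Ltv1 at 0.96 and 1.07. Nob1, the nuclease that makes the final cut of the small subunit RNA, rose by 0.72 ± 0.14 and 0.86 ± 0.14.

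Of the 12 genes of large subunit processing, 11 rose in both genotypes, with medians of 0.98 and 1.03. Nop16, a nucleolar factor of large subunit assembly, was 10.2, 6.72 and 9.56 CPM without and 36.8, 25.3, 34.3, 24.1 and 20.6 CPM with stimulation in control cells. Among cKO libraries the levels were 9.57, 8.39 and 8.35 CPM before and 29.9, 24.8, 27.1 and 26.1 CPM after. No libraries overlapped, and it rose 3.19-fold in control (log2 1.67 ± 0.18, adjusted p = 7.4e-07) and by log2 1.62 ± 0.19 in cKO cells (adjusted p = 1.5e-06).

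Pes1, Bop1 and Wdr12 encode the PeBoW complex, which is needed to process the RNA of the large subunit, and their responses were not alike. Pes1 was 47.4, 43.6 and 48.2 CPM without and 99.6, 76.0, 84.8, 62.7 and 66.7 CPM with stimulation in control cells. It rose by 0.75 ± 0.13 (adjusted p = 7.9e-05) in control and 0.86 ± 0.13 in cKO cells, and Bop1 rose by 0.87 ± 0.15 and 0.94 ± 0.16. Wdr12 was 65.4, 60.0 and 49.3 CPM without and 59.5, 47.3, 52.0, 43.2 and 45.9 CPM with stimulation in control cells, with overlapping groups. The cKO values were 66.6, 50.5 and 56.8 CPM before and 46.5, 47.7, 48.8 and 49.6 CPM after, with every stimulated library lower.

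The log2 change of Wdr12 was -0.23 ± 0.11 (95% interval -0.47 to 0.01, adjusted p = 0.10) in control cells and -0.27 ± 0.12 (-0.52 to -0.02, adjusted p = 0.068) in cKO cells. These intervals lie below those of Pes1 (0.49 to 1.01 and 0.58 to 1.13) and Bop1 (0.55 to 1.18 and 0.62 to 1.27). In control cells the Wdr12 change passed without non-stimulated control replicate 3 (-0.34, adjusted p = 0.029) or stimulated control replicate 1 (-0.29, adjusted p = 0.032), and on the TPM scale its sign turned (0.06). In cKO cells it passed without non-stimulated cKO replicate 2 (-0.35, adjusted p = 0.033).

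The other large subunit genes rose in both genotypes. In control and cKO cells the log2 values were 0.93 and 1.06 for the RNA methyltransferase gene Nop2, 1.02 and 1.08 for Gnl3 (the GTPase nucleostemin), and 1.11 and 1.25 for Grwd1, a histone and ribosomal protein chaperone. Ppan (1.09 and 1.16), Noc2l (1.08 and 1.00), Ebna1bp2 (1.19 and 0.89) and Nip7 (0.88 and 1.22), all factors of large subunit assembly, lay in the same range. Rrs1, which helps place the 5S particle, had the smallest rise among the called genes of this role (0.58 ± 0.17, adjusted p = 0.0096, and 0.51 ± 0.18, adjusted p = 0.024). Its call was lost without non-stimulated control replicate 2 (0.41, adjusted p = 0.071), and in cKO cells without non-stimulated cKO replicate 3 (0.44, adjusted p = 0.098) or stimulated cKO replicate 1 (0.43, adjusted p = 0.068).

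Of the 4 nucleolar genes with several roles, 3 rose. Npm1 was 977, 740 and 751 CPM without and 1458, 1229, 1400, 1066 and 1162 CPM with stimulation in control cells, a rise of 0.62 ± 0.13 (adjusted p = 6.0e-04). In cKO cells it rose by 0.71 ± 0.13 (adjusted p = 2.2e-04). The helicase gene Ddx21 rose by 0.75 ± 0.11 and 0.85 ± 0.12, and Mybbp1a, a repressor and nucleolar protein that binds Myb, by 1.11 ± 0.17 and 1.06 ± 0.17. Ncl was 917, 752 and 742 CPM without and 1101, 879, 1081, 839 and 841 CPM with stimulation in control cells. Its groups overlapped there, with a log2 value of 0.24 ± 0.11 (adjusted p = 0.084), and the value in cKO cells was 0.18 ± 0.12 (adjusted p = 0.21). The control value passed without non-stimulated control replicate 1 (0.35, adjusted p = 0.032), with the replicate block (0.31, adjusted p = 0.024) and on both TPM scales (0.44, adjusted p = 0.013).

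**Figure D2:**
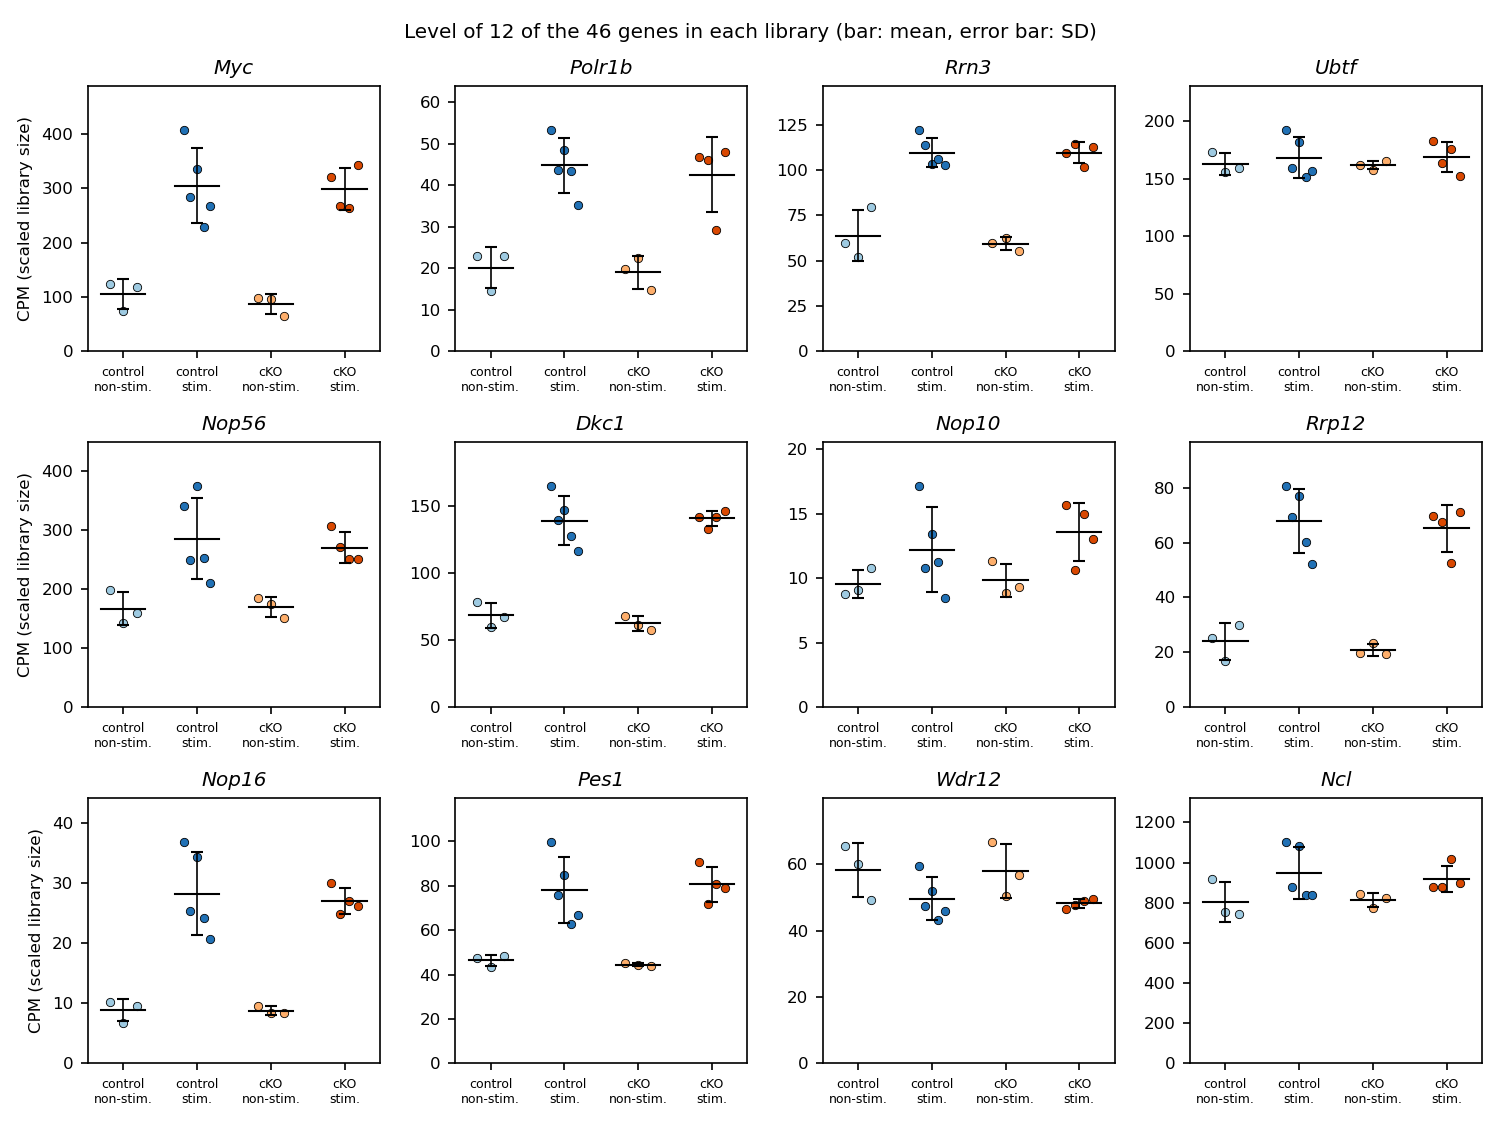
Level of 12 of the 46 genes in CPM on scaled library sizes (y axis, from 0), with 1 point per library, the mean (bar) and the SD (error bar), for the 4 groups. Ubtf, Nop10 and Ncl overlap between conditions in control cells, whereas for Myc, Rrp12 and Nop16 all stimulated libraries are above all non-stimulated ones.

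Summed markers of myeloid and endothelial cells were lower with stimulation, while the sums for CD8 and NK cells overlapped between conditions. The sum of 5 myeloid markers was 3.56 to 7.94 TPM without and 0.22 to 0.81 TPM with stimulation, and Lyz2 was at 0 in all groups. That of 4 endothelial markers (Cdh5, Pecam1, Kdr and Tek) was 50.9 to 66.4 TPM without and 12.7 to 28.1 TPM with stimulation. Cdh5 and Tek were at 0 in stimulated cells. Tek was also at 0 in non-stimulated control cells, and Kdr in non-stimulated cKO cells. The sum of 5 markers of CD8 and NK cells was 11.8 to 30.6 TPM without and 4.89 to 23.2 TPM with stimulation. Their part in the stimulation results was not tested.

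Response sizes in control and cKO cells, which share no library, correlated over the 46 genes with Pearson's r of 0.95 and Spearman's rho of 0.90. The genes share libraries, so this is a description only. The response was larger in cKO cells for 28 genes and smaller for 18. Across genes, the control response and the log2 level without stimulation had a Pearson correlation of -0.36. In that correlation both axes use the non-stimulated libraries.

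The 46 genes tended to be high or low together by library, less clearly in stimulated cKO cells than in the other groups. Stimulated control replicate 1 had the highest level of its group for 40 of the 46 genes, against 23.9% of tested genes. Replicate 3 had it for the other 6, against 18.8%. Replicate 5 had the lowest for 28 and replicate 4 for 13, against 21.6% and 22.9% of tested genes. Among non-stimulated control libraries, replicate 2 was lowest for 37 genes (35.9% of tested genes), and among non-stimulated cKO libraries replicate 3 was lowest for 36 (34.0%). The median log2 deviation of the 46 genes from the group mean was 0.26 in stimulated control replicate 1 and -0.21 in replicate 5, against 0.01 and 0.00 over all tested genes. In stimulated cKO cells, replicates 1 to 4 were highest for 20, 3, 11 and 12 genes, against 28.0%, 16.8%, 31.6% and 23.6% of tested genes. They were lowest for 5, 18, 17 and 6 genes, against 29.2%, 17.9%, 30.1% and 22.8%. Their median deviations ran from -0.05 to 0.09. The 46 genes therefore are not separate measurements of a condition. On the second principal component of all genes (5.06% of the variance), stimulated control replicates 1 and 3 lay at -21.0 and -13.9 and replicates 4 and 5 at 19.1 and 17.8. In non-stimulated control cells the order was not the same, with replicate 3 at 23.7 and a median deviation of 0.14, and replicate 2 at -4.21 and -0.25. The part of that axis in these values was not tested.

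**Figure D3:**
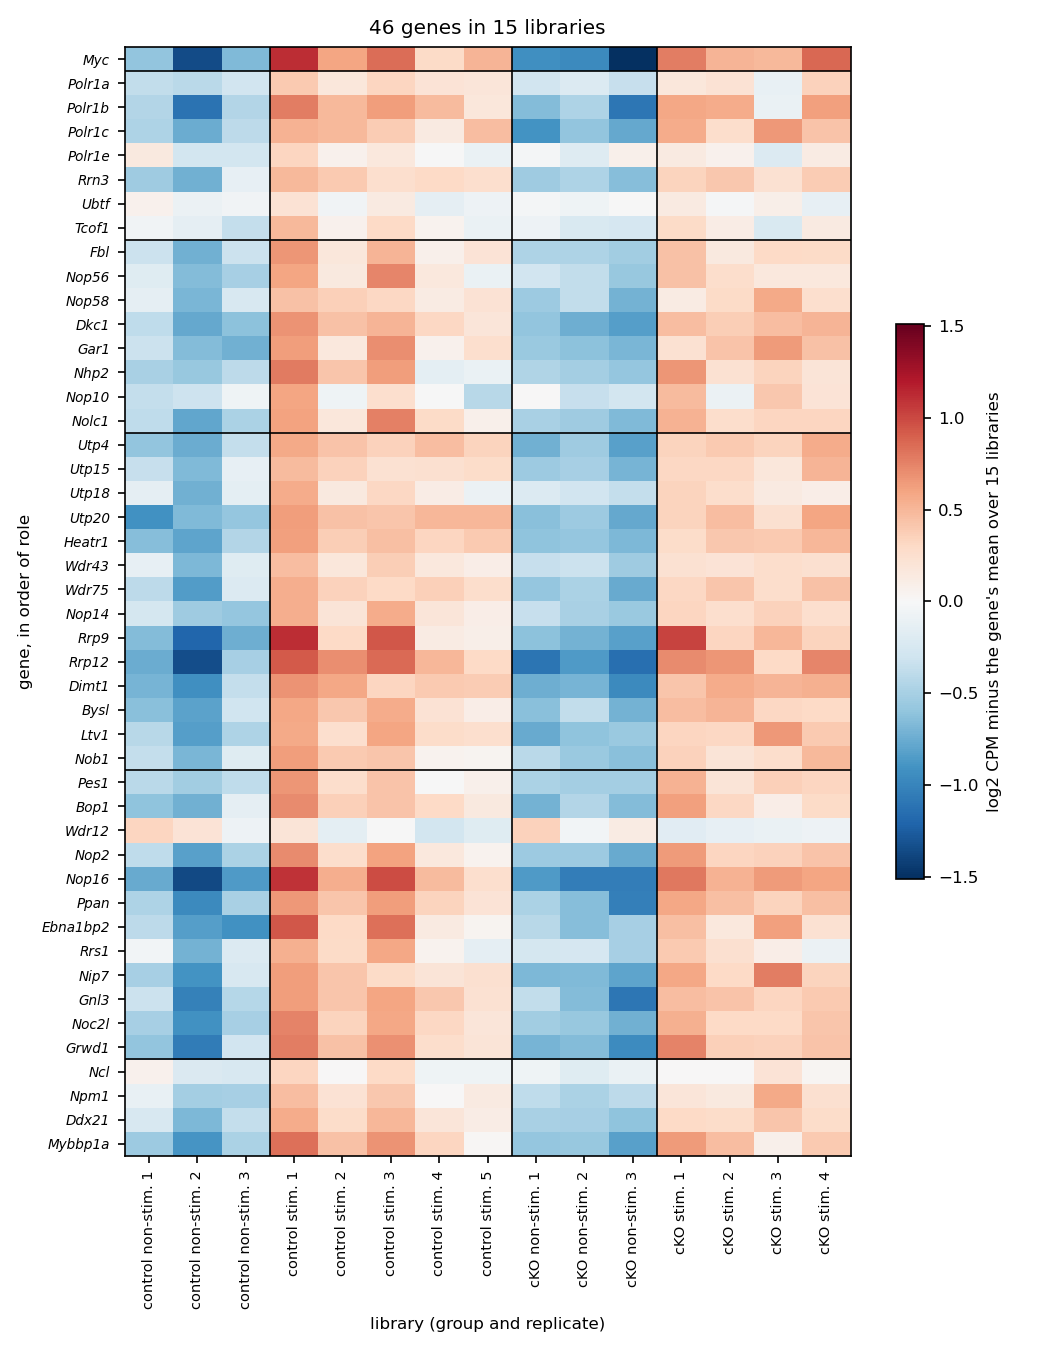
Log2 CPM of the 46 genes (rows, by role) in the 15 libraries (columns, by group), each minus the mean of the gene over all libraries. Most rows are blue without and red with stimulation, with Ubtf, Polr1e, Wdr12 and Ncl pale, and among stimulated control libraries replicate 1 is the darkest for most genes.

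The genotypes were then compared. Without stimulation, none of the 46 genes was called by edgeR and none had an unadjusted p under 0.05, where 2.57% of tested genes did and 0% passed adjustment. Asb2 was thus also not called there, although every cKO library was below every control library for it. With stimulation the counts were again 0 of 46 at an adjusted and at an unadjusted p under 0.05, against 0.0064% (1 gene, Asb2, lower in cKO) and 1.81% of tested genes. DESeq2 also called none of the 46 in either condition. No member separated the libraries of the genotypes without overlap, where cKO lay above control for 4.37% and below it for 3.49% of tested genes without stimulation, and for 0.307% and 0.352% with it. The median log2 difference, cKO against control, was -0.06 without and -0.02 with stimulation, and 36 and 29 of the 46 values were below 0 (7991 and 7545 of the 15619 tested genes). Single libraries moved these medians. The first was -0.17 without non-stimulated control replicate 2, 0.01 without replicate 1 and -0.01 without replicate 3 of that group, and 0.00 without non-stimulated cKO replicate 3. The second was 0.05 without stimulated control replicate 1, 0.01 without replicate 3 and -0.07 without replicate 5 of that group.

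Myc had the lowest value without stimulation, -0.27 ± 0.23 (95% interval -0.76 to 0.21), from 124, 73.6 and 118 CPM in control and 98.7, 96.7 and 65.9 CPM in cKO libraries, which overlapped. With stimulation it was -0.03 ± 0.18 (-0.42 to 0.36), a value whose sign changed when single libraries were left out. Of all 46 genes, Polr1c had the smallest p without stimulation (-0.23 ± 0.13, edgeR adjusted p = 1) and Nip7 with it (0.15 ± 0.13, edgeR adjusted p = 1). Ebna1bp2 had the highest value without stimulation (0.18 ± 0.22) and the lowest with it (-0.12 ± 0.18). Nop10 had the highest value with stimulation (0.15 ± 0.17).

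A missed threshold does not show that the genotypes are alike, so the intervals were read against a limit of 1.5-fold in either direction. Without stimulation the 95% interval lay within this limit for 42 of the 46 genes, against 57% of tested genes, and the exceptions were Myc, Rrp9, Rrp12 and Ebna1bp2. With stimulation it did so for all 46, against 65.2%. Intervals tend to be narrower for genes with more counts, and 39 of the 46 genes were above the median TPM of tested genes. These shares therefore do not compare genes of like level. For Heatr1, as one of the more precisely measured genes, the intervals were -0.22 to 0.21 and -0.21 to 0.13.

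**Figure D4:**
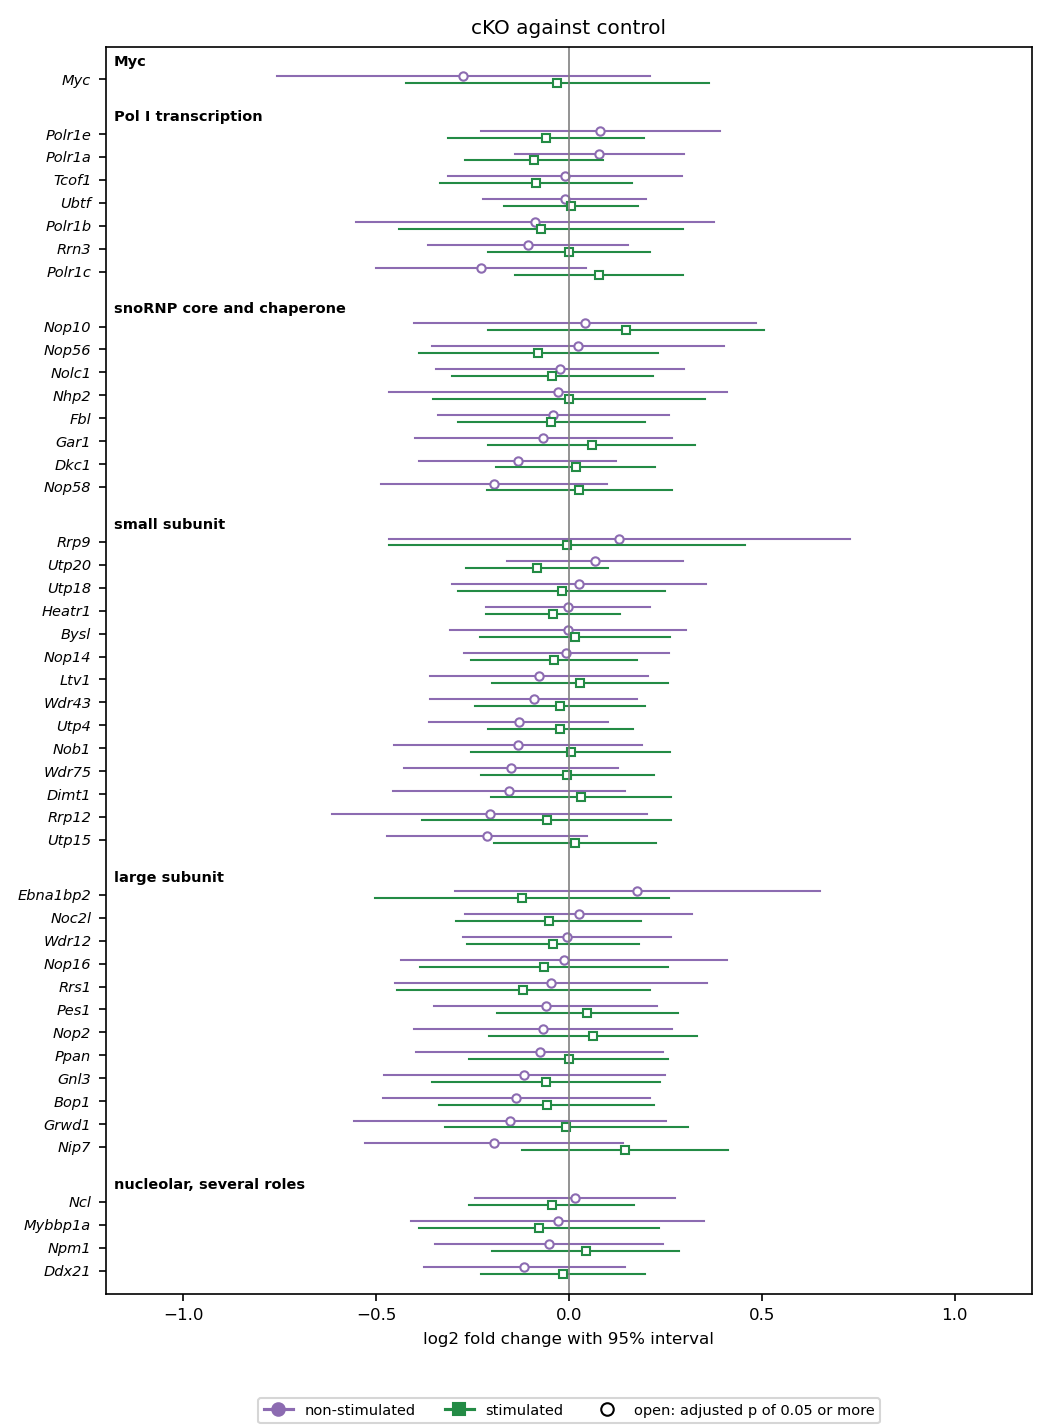
Log2 fold change of each of the 46 genes in cKO against control cells (x axis) with 95% intervals, without (circles) and with (squares) stimulation, by role. All symbols are open, since none passed an adjusted p of 0.05, and the values run from -0.27 (Myc) to 0.18 (Ebna1bp2).

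The difference between the stimulation responses of cKO and control cells (interaction) was called for 0 of the 46 and 0 of the 15619 tested genes. None of the 46 had an unadjusted p under 0.05, against 3.87% of tested genes, and DESeq2 called none. The values ran from -0.30 ± 0.29 for Ebna1bp2 to 0.34 ± 0.20 for Nip7, with a median of 0.06. That median was 0.16 without non-stimulated control replicate 2 and 0.13 without stimulated control replicate 1, and it was -0.02, 0.00 and 0.00 without non-stimulated control replicate 1 or 3 or non-stimulated cKO replicate 3. Without stimulated control replicate 4 or 5 or stimulated cKO replicate 1 it was 0.04, 0.00 and 0.01, and with the replicate block 0.01. For Myc the interaction was 0.24 ± 0.29 (95% interval -0.38 to 0.87), with 0.08 to 0.45 over single omissions. Differences of a size within -0.38 to 0.87 were therefore not excluded for Myc. The interval lay within 1.5-fold for 33 of the 46 genes, against 43.7% of tested genes, a set that again includes many genes at lower levels.

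Other genes of the pathway came from 7 further lists, and 145 of their 147 genes had a row. In control cells, 31 of 40 other genes of small subunit processing and 36 of 46 of large subunit processing rose and none fell, with medians of 0.54 and 0.52. The processome scaffold Pdcd11 (1.53 ± 0.11), the acetyltransferase Nat10 (1.22 ± 0.11) and Nol11 (0.96 ± 0.10) had the smallest p of the first list. Noc3l (1.32 ± 0.11), the giant ATPase Mdn1 (1.16 ± 0.12) and Brix1 (0.82 ± 0.09) had those of the second. In cKO cells the counts were 33 of 40 and 37 of 46. For comparison with these and the following lists, 25.4% of all tested genes rose and 25.2% fell in control cells. In cKO cells these shares were 26.7% and 27.1%.

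Of 13 tested genes of the RNA exosome and its helpers, which trim precursor RNA, 10 rose in each genotype, among them the nuclease gene Dis3 (1.07 ± 0.10 in control cells), Mphosph6 (0.80 ± 0.08) and the helicase gene Mtrex (0.60 ± 0.08). Of 9 snoRNP assembly genes, 7 rose and 1 fell in control cells, and 7 rose in cKO cells. Shq1 (1.27 ± 0.19), which chaperones the H/ACA enzyme, Znhit6 (1.13 ± 0.18) and Ruvbl1 (1.01 ± 0.12) led this list. Among 14 tested genes known as Myc targets outside ribosome assembly, 12 rose in each genotype. The cyclin gene Ccnd2 (1.59 ± 0.09), the transferrin receptor gene Tfrc (1.49 ± 0.10) and Odc1 (1.43 ± 0.12), which starts polyamine synthesis, had the smallest p.

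The remaining lists were mixed. Of 10 other genes of polymerase I transcription, 3 rose (30%) and 2 fell (20%) in control cells. This is near the shares over all tested genes (25.4% and 25.2%). Their median was -0.07, and Taf1d was higher (0.63 ± 0.08). Maf1, a repressor of RNA polymerase III, fell (-0.90 ± 0.09), and so did Baz2a (-0.47 ± 0.07), which silences ribosomal DNA. In the Myc network, 4 of 12 genes rose and 6 fell in control cells (median -0.34), and 3 rose and 7 fell in cKO cells. Mxd4 and Mnt, which encode repressors that compete with Myc for Max, fell by 1.94 and 0.96 on the log2 scale in control cells, and Max, the partner of Myc, fell by 0.48. In cKO cells they fell by 1.85, 0.92 and 0.37. Mycn, a paralog of Myc chosen after its values were seen, rose from 1.27 ± 0.83 to 12.7 ± 3.72 CPM in control cells (SD, n = 3 and 5, adjusted p = 1.1e-04). Mycl, another paralog on this list, went the other way, from 9.11 ± 2.81 to 2.83 ± 0.86 CPM in the same cells. The calls of Max and Baz2a in control cells were lost on the TPM scale (adjusted p = 0.14 and 0.13). None of these genes was called between the genotypes or in the interaction.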

How the data were processed

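RNA was measured in 15 libraries from a stranded kit with depletion of ribosomal RNA, per the labels' protocols. Deposited values were estimated counts per gene, not scaled between libraries (9.42% of all values, zeros included, were not whole), and TPM values scaled by the authors within each library. The submitters' processing notes name cutadapt 3.4, STAR 2.7.9a, Salmon 1.10.1 and GRCm39. The annotation release is not given in the sources used here.

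Estimated counts were rounded and fitted across all genes in R 4.3.3 with edgeR 4.0.16 (filterByExpr, scaling by trimmed mean of M-values, robust quasi-likelihood test, 1 mean per group, 15 libraries). P-values are two-sided, with Benjamini-Hochberg adjustment over 15619 genes, and calls are at an adjusted p under 0.05. The biological coefficient of variation was 15.4%. SE and 95% intervals come from this fit, CPM from its library sizes, and levels between genes from TPM. The code was tested on simulated data.

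Members and lists were chosen with earlier results of these data known. Named genes are every member, Asb2, and the 3 genes with the smallest control stimulation p of each other list. Mycn and Mycl were named after their values were seen. Alternatives tried were size factors of the relative log expression kind, DESeq2 1.42.0, no filter on counts or 1 CPM in 3 libraries, only the groups compared (not for the interaction), a replicate block, limma 3.58.1 (voom with quality weights, or log2 of TPM plus 0.1 or 1), no mitochondrial or small RNA genes, and leaving libraries out. Protein sequences were not analysed here.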

Additional observations from a re-analysis of the deposited data

Results flagged for a closer look

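In groups of 4 or 5 libraries, a library was looked at again where its gap to the nearest other one took an unusually large share of the group's range (Dixon's 95% critical value). Of 92 such groups 2 stood out, and chance alone marks about 1 in 20. Polr1b was at 29.2 CPM in stimulated cKO replicate 3, against 46.05 to 48.1 CPM in the other 3 libraries. Ncl was at 1017 CPM in the same library, against 880 to 899 CPM. This library also had the mitochondrial share of 9.43%, whose part in these values was not tested.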

How the results depend on the processing

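The 46 genes were recomputed under 26 alternatives, 10 of them changes of tool, scaling, filter, block or samples, 15 leaving out 1 library each, and 1 added after seeing the data that left out stimulated cKO replicate 3 and non-stimulated control replicate 3. The count called higher stayed between 39 and 43 in control and 37 and 42 in cKO cells, and 78 of 92 member results for stimulation kept their direction and their side of the threshold throughout. The count called lower became 1 (Wdr12) with limma-voom in both genotypes and with the added omission in control cells, and ranged from 0 to 1 over single omissions in both genotypes.

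On log2(TPM + 0.1) and log2(TPM + 1) with limma, the median of all genes moved by more than 0.1, to 0.14 and 0.11 in control cells, and the share of calls that were higher went from 50.2% to 64.0% and 63.6% (in cKO cells from 49.7% to 42.9% and 42.0%). Relative to all genes, the median of the 46 genes stayed at 0.82 and 0.83 in control and 0.91 and 0.84 in cKO cells. The same scales gave medians of 0.11 and 0.11 for genotype without stimulation and -0.18 and -0.17 for the interaction, where all genes were at 0.15 and 0.12, and -0.21 and -0.17. They also turned the sign of Wdr12 in control cells (0.061 and 0.059), Ubtf in cKO cells (-0.0066 and -0.0062) and the Myc interaction (-0.0028 and -0.0036), and ended the control call of Tcof1 and the cKO calls of Polr1a, Utp18 and Rrs1. Ubtf in control cells was -0.0079 with limma-voom. Myc by genotype with stimulation was 0.019 under the added omission and ran from -0.12 to 0.10 over single omissions. These causes were not tested.

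Same-numbered libraries correlated between -0.20 and 0.18, with 3 of 19 pairs over 0.1, and the own number was the best match in 7. No clear pairing by number was seen, but groups of 3 to 5 libraries cannot exclude it. With the replicate number as a block, 43 and 42 genes were called higher, with medians of 0.97 and 0.98. Precision is limited by 3 to 5 libraries a group.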
